A study of Mus musculus with 2 samples.

Results

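The 10 genes of retinal glia described here were followed from nucleus to nucleus in the P21 mouse retina: Glul, Slc1a3, Aqp4, Kcnj10, Sox9, Lhx2, Apoe, Clu, Vim and Mertk. They were chosen by name, as 10 of the 32227 genes in the deposited gene table. Single-nucleus RNA-seq (snRNA-seq) was performed on whole retinas of C57 BL/6J mice at postnatal day 21, with 1 Cre− library and 1 Tet tcKO library. The Cre− animals carried no Cre and are labelled WT. Tet tcKO animals carried loxP-flanked alleles of Tet1, Tet2 and Tet3 together with a Cre-GFP transgene, which is active in retinal progenitor cells and is known to be mosaic. Breeders were in-crossed to carry both copies of the transgene. Each library combined nuclei of more than 1 dissociation pool and of several animals, and the pool of a nucleus is not recorded. The TET enzymes oxidise methylated cytosine, the first step of active DNA demethylation, and the comparison asks how the retina forms without them.

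Müller glia are the main glial cells of the retina and span its whole thickness. They clear glutamate from the synaptic layers and turn it into glutamine, carry potassium and water away from active neurons, and supply lipids and structural support. They arise last from the same progenitors as the neurons, and they keep transcription factors that progenitors use. The 10 genes cover these roles, but several are known from other cells too: Vim in horizontal cells of the young retina, Apoe in astrocytes and microglia, and Mertk in the retinal pigment epithelium. The study named its clusters of nuclei from canonical marker genes of retinal cell types, and it used LHX2 and glutamine synthetase, the product of Glul, to recognise Müller glia in stained sections, so the level of a member in Müller-annotated nuclei against other nuclei is a description and not a result.

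The Cre− library held 7357 nuclei and 11510585 UMIs, and the Tet tcKO library 6766 nuclei and 16590747 UMIs. Median depth was 1107 and 1836.5 UMIs per nucleus. The libraries shared 1 cell barcode. Mitochondrially encoded genes took 5.47% of UMIs in Cre− and 1.76% in Tet tcKO. Over all nuclei, Tet1 was at 50.2 and 61.2 counts per 1000000 (CPM), Tet2 at 105 and 139 CPM, and Tet3 at 180 and 174 CPM in Cre− and Tet tcKO. The 3′ tags counted here can lie outside the deleted exons, so these levels do not check the deletion. With 1 library per genotype there is no test between genotypes. Every interval below is an exact 95% interval and covers counting error only, not the spread between animals.

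Müller glia were annotated for 144 of the Cre− nuclei, 1.96% (interval 1.65 to 2.30), and for 102 of the Tet tcKO nuclei, 1.51% (1.23 to 1.83). These nuclei lay in 3 clusters. Cluster 14 held 99 Cre− nuclei and 0 Tet tcKO nuclei, cluster 37 held 2 and 56, and cluster 30 held 43 and 46. Thus most Müller nuclei of each genotype sat in a cluster of their own, and cluster 30 was the one that both genotypes shared. Of 13 Müller glia markers, all had a UMI in cluster 14, in cluster 37 and in the Cre− nuclei of cluster 30. In the Tet tcKO nuclei of cluster 30 only Kcnj10 was at 0. A UMI alone does not mark Müller glia, since all 8 rod, 9 cone, 9 bipolar and 7 amacrine markers were also detected in cluster 14. The 13 Müller markers, Glul, Slc1a3, Aqp4, Kcnj10, Sox9 and Apoe among them, summed to 3379 CPM in cluster 14 and 3658 CPM in cluster 37. Over all nuclei they were at 1256 and 1042 CPM. Rod markers were higher in cluster 14 (6546 CPM), as cone markers were in cluster 37 (4686 CPM). In cluster 30 the Müller sums were 6888 and 5289 CPM. Of 8 microglial markers, between 5 and 7 were at 0 in these populations, C1qa, C1qb and Tyrobp in all of them. Of 6 endothelial markers, 3 to 5 had a UMI, with a summed level of 767 CPM in cluster 14, 1682 and 844 CPM in the Cre− and Tet tcKO nuclei of cluster 30, and 661 CPM in cluster 37. When genes were ranked with each counted once per nucleus, cluster 14 had 1 endothelial marker, Flt1, and none of the 13 Müller markers among its 10 leading genes, though Mertk, which is not on that marker list, was among them. Ranked by UMIs it had Flt1 and 1 Müller marker, Abca8a, and passed. Since 1 ranking failed, Müller glia were compared between genotypes by cluster number and not as a class.

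The upstream sequences of the genes are shown because CpG dinucleotides are where TET enzymes act. Methylation itself is not analysed here. The windows are the 250 bases before the RefSeq start, taken from the RefSeq promoter table of build GRCm38.p6 and matched letter for letter to 1 place in GRCm39. For 7 genes there was an entry, and 6 of these 7 had more CpGs than the median of 6 over 27025 genes (quartiles 2 and 16). Aqp4, Sox9 and Clu had no entry. Glul had 15 CpGs and lies at chr1:153775690-153785469 on the plus strand of GRCm39. Slc1a3, at chr15:8663604-8741595 on the minus strand, had only 2 CpGs, fewer than most genes. Apoe, at chr7:19430034-19434947 on the minus strand, had 8. The windows of Slc1a3 and Apoe fall within the longer span that GENCODE gives each gene. These 3 genes are shown because they gave the main contrasts below: Glul was lower in Tet tcKO over all nuclei, while Slc1a3 and Apoe were higher. Each sequence is written 5′ to 3′ on the strand of its gene, with CpGs in capitals. Their places are chr1:153775425-153775674, chr15:8740292-8740541 and chr7:19433114-19433363.
Glul: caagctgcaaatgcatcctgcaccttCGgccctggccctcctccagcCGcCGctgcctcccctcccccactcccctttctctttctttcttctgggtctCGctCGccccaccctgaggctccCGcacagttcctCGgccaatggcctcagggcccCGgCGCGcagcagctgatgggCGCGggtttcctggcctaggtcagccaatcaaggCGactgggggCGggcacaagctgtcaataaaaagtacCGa
Slc1a3: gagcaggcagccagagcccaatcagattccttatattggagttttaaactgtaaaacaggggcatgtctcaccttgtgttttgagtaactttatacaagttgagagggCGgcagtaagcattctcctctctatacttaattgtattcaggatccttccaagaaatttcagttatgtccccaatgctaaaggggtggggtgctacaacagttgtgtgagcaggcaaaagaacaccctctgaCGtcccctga
Apoe: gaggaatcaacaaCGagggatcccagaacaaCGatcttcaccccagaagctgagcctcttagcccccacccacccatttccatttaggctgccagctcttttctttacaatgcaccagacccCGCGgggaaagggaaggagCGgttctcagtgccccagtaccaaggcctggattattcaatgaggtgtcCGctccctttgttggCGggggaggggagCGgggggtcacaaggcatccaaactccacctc
Lhx2, at chr2:38229293-38259759, had the most CpGs of the 7, with 25. Kcnj10, at chr1:172168765-172201652, had 17, Vim, at chr2:13578738-13587639, had 8, and Mertk, at chr2:128540729-128645080, had 7. The letters ACAAT, a core that SOX factors bind, were searched on both strands and were present in Slc1a3 and Apoe, against 28.2% of all windows. The letters TAATTA, bound by LIM homeodomain factors, were in none of the 7, against 4.91% of all windows. Neither motif contains the other. Motif matches are a description of these letters, not of binding. Sox9 lies at chr11:112673009-112678586 and Clu at chr14:66190200-66218999. Glul, Aqp4, Sox9, Lhx2, Clu and Mertk overlap another gene of the table on the opposite strand, and the sources used here do not say how strand was counted.

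Most UMIs of the 10 genes were not in Müller glia. Müller-annotated nuclei held 5.57% (interval 5.13 to 6.03) of the genes' UMIs in Cre− and 2.89% (2.58 to 3.22) in Tet tcKO. These nuclei also held only 1.93% and 0.899% of all UMIs. Nuclei annotated as rods or cones held 72.6% and 60.7% of the genes' UMIs, against 65.8% and 44.7% of all UMIs. Thus the levels over whole libraries below are mainly those of neuronal nuclei. The authors removed ambient RNA with CellBender, and the part of remaining free RNA in neuronal nuclei was not tested.

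**Figure D1:**
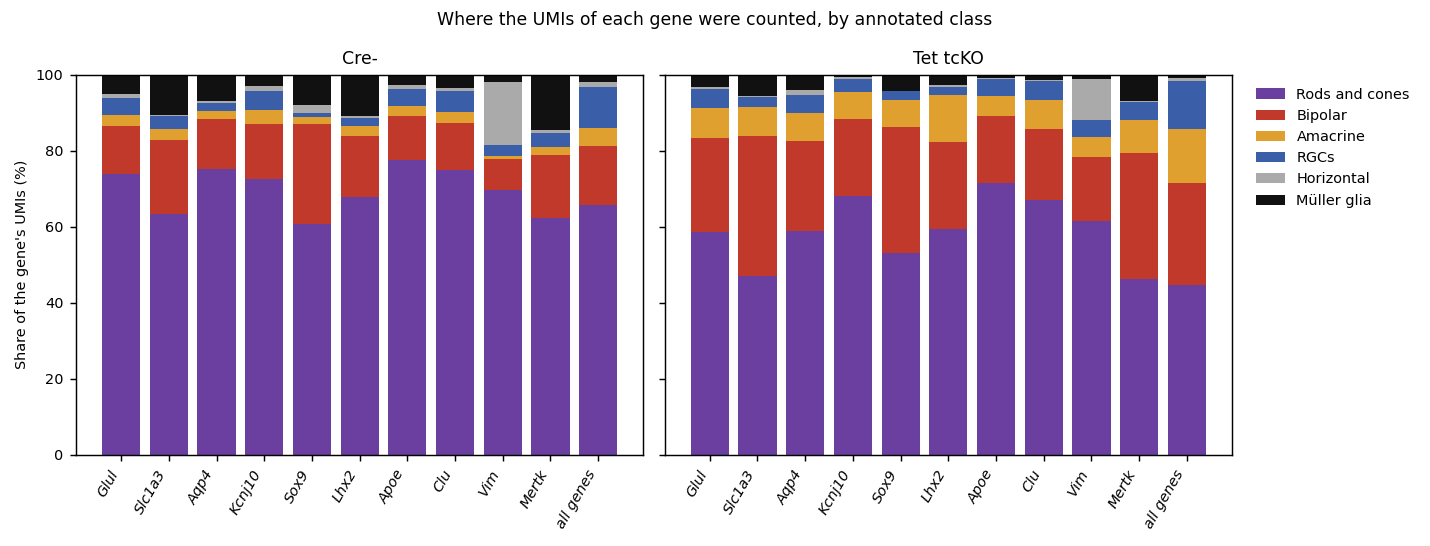
Share of each gene's UMIs (%) by annotated class, as stacked bars, for Cre− (left) and Tet tcKO (right), with the last bar for all genes. Black marks Müller glia: it is widest for Mertk in both libraries, at 14.5% in Cre− and 6.87% in Tet tcKO.

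The genes differed in how far Müller nuclei stood above the other nuclei. Mertk had the widest gap, 8.59-fold in Cre− (158 against 18.3 CPM) and 8.12-fold in Tet tcKO (107 against 13.2 CPM). Slc1a3 was 6.03-fold and 6.72-fold higher in Müller nuclei, Lhx2 6.20-fold and 3.12-fold, Sox9 4.47-fold and 5.09-fold, and Aqp4 3.76-fold and 4.53-fold. Glul followed with 2.78-fold and 3.82-fold. For these 6 genes the interval of the ratio lay above 1-fold in both libraries. Clu was 1.82-fold and 1.47-fold higher, with an interval that included no difference in Tet tcKO. Apoe, Vim and Kcnj10 did not stand out in Müller nuclei beyond counting error in either library. Apoe was at 144 CPM in Müller nuclei and 100.01 CPM in the others in Cre−, and at 161 and 179 CPM in Tet tcKO.

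**Figure D2:**
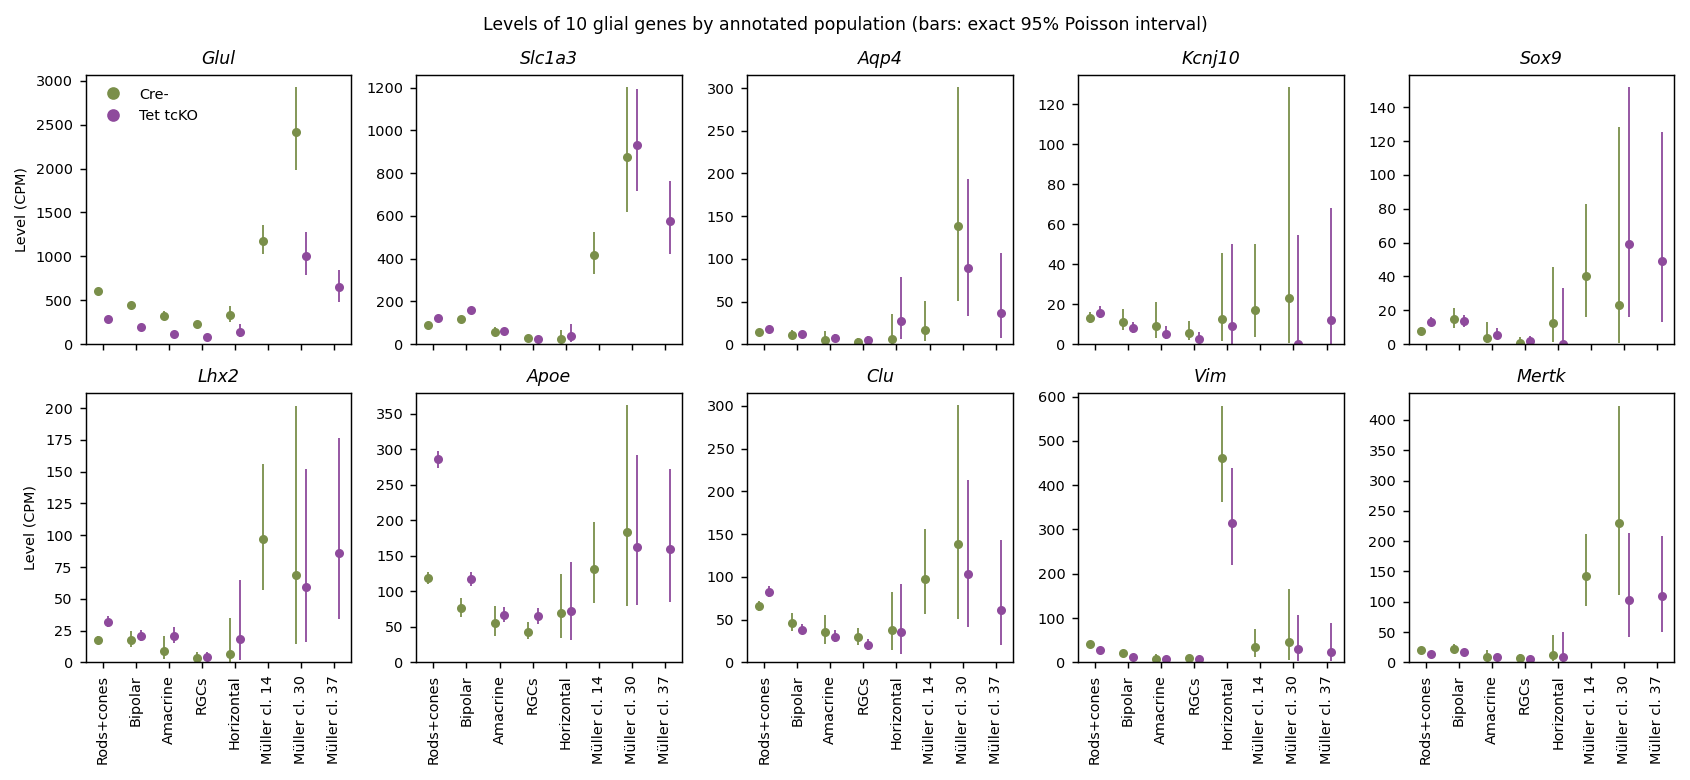
Level of each gene (CPM, linear axis from 0, a scale of its own in each panel) in annotated classes and in the 3 Müller clusters. Points are library values, green for Cre− and purple for Tet tcKO, with exact 95% Poisson intervals, and populations under 20 nuclei are not drawn; the 3 Müller clusters top the Glul and Slc1a3 panels, while horizontal cells top the Vim panel.

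Detection per nucleus was compared at equal depth. When each nucleus was thinned to 500 UMIs, Glul had a UMI in 79.1% (64.0 to 89.96) of Cre− nuclei of cluster 30 and in 36.96% (23.2 to 52.5) of its Tet tcKO nuclei. In cluster 14 of Cre− the share was 43.4% (33.5 to 53.8), and in cluster 37 of Tet tcKO 30.4% (18.8 to 44.1). At 500 UMIs the intervals of the libraries lay apart in cluster 30, while those of clusters 14 and 37 overlapped. Without thinning, the shares were 90.7% and 69.6% in cluster 30, 81.8% in cluster 14 and 57.1% in cluster 37. There the intervals overlapped in cluster 30, while those of clusters 14 and 37 lay apart. Which intervals lay apart thus depended on the depth, and the shares were lower in Tet tcKO at both depths. Retinal ganglion cells (RGCs), which should lack Glul, gave 11.3% in Cre− and 3.98% in Tet tcKO at 500 UMIs, and rods gave 28.3% in Cre−. In cluster 30, Slc1a3 was found in 30.2% of nuclei from Cre− and 36.96% from Tet tcKO, and elsewhere in 14.1% of cluster 14 and in 26.8% of cluster 37, against 1.23% and 1.56% of RGCs. Unthinned, these Müller shares were 62.8%, 80.4%, 47.5% and 55.4%. Mertk was found in 13.95% and 6.52% of nuclei of cluster 30, in 9.09% of cluster 14 and in 7.14% of cluster 37, against 0.529% and 0.284% of RGCs. Unthinned, these Müller shares were 23.3%, 15.2%, 22.2% and 16.1%. Median depth before thinning was 1093 and 1373 UMIs in Müller nuclei and 1601 and 2381 UMIs in RGCs. For Slc1a3 and Mertk the shares of the Müller clusters thus lay above those of RGCs in both libraries. Kcnj10 was in 0 of 144 Cre− Müller nuclei at 500 UMIs, which allows a share of up to 2.08% by a limit of 3 nuclei and up to 2.53% by the exact interval, and in 1 of 102 Tet tcKO nuclei. At this depth 3 or more of the 10 genes were seen together in 16.3% (6.81 to 30.7) of Cre− and 4.35% (0.531 to 14.8) of Tet tcKO nuclei of cluster 30, in 5.05% of cluster 14 and in 3.57% of cluster 37, against 0.307% of Cre− rods. Unthinned, the shares were 37.2% and 39.1% in cluster 30, 35.4% in cluster 14 and 37.5% in cluster 37. The intervals overlapped between the libraries at either depth, so no difference in joint detection was detectable.

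**Figure D3:**
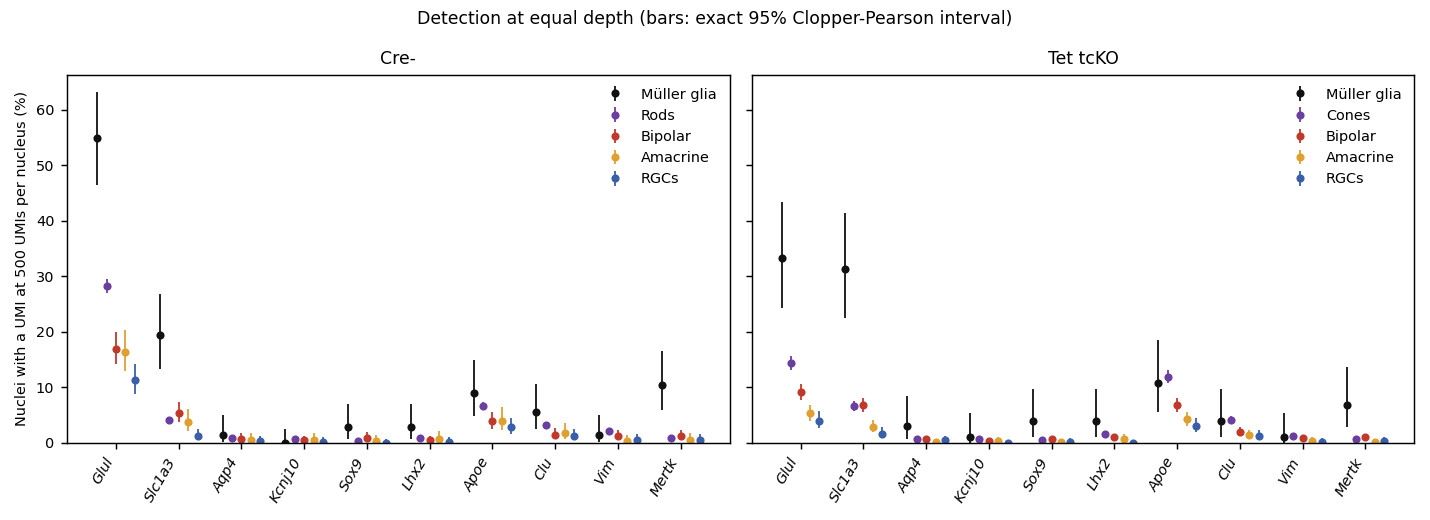
Share of nuclei (%) with at least 1 UMI of each gene after thinning to 500 UMIs per nucleus, with exact 95% Clopper-Pearson intervals, in Cre− (left) and Tet tcKO (right). Photoreceptors are shown by rods in Cre− and by cones in Tet tcKO; the 3 Müller clusters are drawn together (black) for comparison with other classes of the same library, with their highest share for Glul, at 54.9% and 33.3%, and 0% for Kcnj10 in Cre−.

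Of the 10 genes, Glul had the log2 ratio farthest from 0 over all nuclei. It encodes glutamine synthetase, the enzyme that turns glutamate and ammonia into glutamine. Over all nuclei Glul was at 536 CPM (523 to 550) in Cre− against 218 CPM (210 to 225) in Tet tcKO, for a log2 ratio of -1.30 (-1.36 to -1.24). Fewer cells of a type and less RNA per cell cannot be told apart in such library sums. In cluster 30, Glul was at 2419 CPM (1978 to 2928) in Cre− against 1007 CPM (782 to 1277) in Tet tcKO, from 105 and 68 UMIs. That is a log2 ratio of -1.26 (-1.73 to -0.81), and it was -0.81 when each gene was counted once per nucleus. Cluster 14 of Cre− stood at 1180 CPM and cluster 37 of Tet tcKO at 648 CPM, for a log2 ratio of -0.86 (-1.33 to -0.42). Both Müller comparisons thus placed Glul lower in Tet tcKO, though the comparison of clusters 14 and 37 sets different clusters side by side. Clusters also differed within Cre−, where cluster 14 (1024 to 1352 CPM) lay below cluster 30. Its interval overlapped that of the Tet tcKO nuclei of cluster 30.

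Glul was also lower in Tet tcKO outside Müller glia. In amacrine cells it was at 324 and 120 CPM in Cre− and Tet tcKO, for a log2 ratio of -1.43 (-1.71 to -1.16), and in RGCs at 228 and 86.3 CPM, for a log2 ratio of -1.40 (-1.68 to -1.13). Different clusters held most nuclei of these classes in the 2 libraries. Of 403 Cre− amacrine nuclei 256 were in cluster 27, with 21 of 1043 in Tet tcKO, while Tet tcKO nuclei were mainly in clusters 12, 23 and 24. Of 567 Cre− RGCs 394 were in cluster 8, with 29 of 704 in Tet tcKO. Glul was lower in Tet tcKO within each of the 7 such clusters that had 20 nuclei or more of both libraries. The log2 ratios were -1.93, -0.83, -1.37 and -0.94 in amacrine clusters 13, 23, 24 and 27, and -1.12, -1.30 and -0.69 in RGC clusters 2, 8 and 31. The intervals of clusters 23, 27 and 31 included 0. In nuclei annotated as rods or cones it was at 602 and 286 CPM, for a log2 ratio of -1.08 (-1.15 to -1.001). The 15 Cre− photoreceptor clusters of 40 nuclei or more ran from 505 to 822 CPM and the 8 Tet tcKO clusters from 239 to 337 CPM, with no overlap. Clusters of 1 library are not replicates, and the share of all genes without such overlap was not computed. The interval of cluster 30 overlapped those of each of these classes. Other values moved with it. In cluster 30, the mitochondrial share of UMIs was 2.71% in Cre− and 1.25% in Tet tcKO. The 8 rod markers were all detected in each Müller population, with a summed level of 6546 CPM in cluster 14, 3686 and 1289 CPM in cluster 30, and 2092 CPM in cluster 37. The 9 cone markers summed to 1426 CPM in cluster 14, 622 and 1585 CPM in cluster 30, and 4686 CPM in cluster 37. The part of these values in the Glul difference was not tested. With the level in RGCs of the same library subtracted from each side, the Glul ratio in cluster 30 was -1.25. The ratio in RGCs (-1.40) was close to that in cluster 30 (-1.26), so this subtraction could hardly move it. It therefore does not test for background RNA.

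Slc1a3 encodes GLAST, the glial glutamate transporter that brings glutamate into the cell. Over all nuclei it was at 91.7 CPM (86.2 to 97.4) in Cre− against 115 CPM (110 to 121) in Tet tcKO, for a log2 ratio of 0.33 (0.22 to 0.44). In cluster 30 it was at 875 CPM and 933 CPM, from 38 and 63 UMIs, for a log2 ratio of 0.09 (-0.51 to 0.71). Slc1a3 thus differed from Glul: no difference was detectable in cluster 30 at this depth. Cluster 14 of Cre− was at 418 CPM and cluster 37 of Tet tcKO at 575 CPM, with a log2 ratio of 0.46 (-0.10 to 1.01). In photoreceptor-annotated nuclei Slc1a3 was at 88.3 and 122 CPM, for a log2 ratio of 0.46 (0.32 to 0.61), and in RGCs at 27.6 and 23.4 CPM, with an interval that included 0.

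Counting both genes in the same nuclei removes any difference in depth between the libraries. Cluster 30 held 2.76 (1.89 to 4.12) Glul UMIs for each Slc1a3 UMI in Cre− and 1.08 (0.755 to 1.55) in Tet tcKO. Cluster 14 of Cre− gave 2.82 (2.15 to 3.74) and cluster 37 of Tet tcKO 1.13 (0.747 to 1.71). Photoreceptor-annotated nuclei gave 6.82 and 2.35, and RGCs 8.24 and 3.68. In each of these comparisons the intervals of the libraries did not overlap. The ratio was also lower in the Müller clusters than in RGCs and photoreceptors of the same library. Within Tet tcKO, the intervals of photoreceptors (2.17 to 2.54) and RGCs (2.68 to 5.14) did not overlap either.

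**Figure D4:**
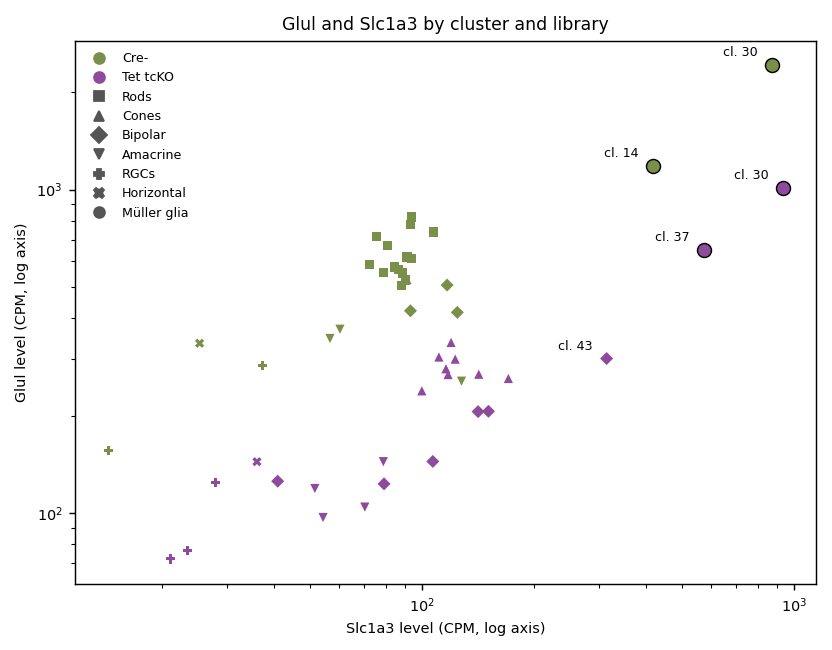
Glul against Slc1a3 (CPM, both axes logarithmic) in each cluster of each library with more than 3 UMIs of both genes; colour gives the library and shape the annotated class. Müller clusters 14, 30 and 37 lie at the upper right, Tet tcKO points lie below Cre− points at similar Slc1a3, and Tet tcKO cluster 43 lies between the Müller clusters and the neurons at 314 CPM of Slc1a3.

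Water and potassium channels of glial endfeet were rare in nuclei. Aqp4 encodes the water channel aquaporin-4. It was at 12.6 CPM in Cre− against 13.7 CPM in Tet tcKO over all nuclei, for a log2 ratio of 0.13 (-0.18 to 0.44). In cluster 30 it had 6 UMIs in each library, which is 138 CPM (50.7 to 301) and 88.9 CPM (32.6 to 193). Kcnj10 encodes the inward rectifier potassium channel Kir4.1. It was at 11.99 CPM and 10.4 CPM over all nuclei, for a log2 ratio of -0.21 (-0.54 to 0.12), and had 1 and 0 UMIs in cluster 30. A count of 0 there allows up to 44.4 CPM by a limit of 3 UMIs and up to 54.7 CPM by the exact interval. Neither channel gene therefore showed a difference that these counts could detect. The highest Kcnj10 level was in rod-annotated cluster 36 of Cre− and in cone-annotated cluster 51 of Tet tcKO, and its interval overlapped that of cluster 30 in each library.

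The transcription factors were detected at low levels, so their ratios in Müller clusters are wide. Sox9, an HMG-box factor of glia and progenitors, was at 8.60 CPM in Cre− against 10.9 CPM in Tet tcKO over all nuclei, for a log2 ratio of 0.34 (-0.02 to 0.71). Cluster 30 had 1 Sox9 UMI in Cre− and 4 in Tet tcKO, too few for a direction. Lhx2, a LIM homeodomain factor needed for eye formation and kept in Müller glia, was at 16.8 CPM (14.5 to 19.3) and 24.1 CPM (21.8 to 26.6) over all nuclei, for a log2 ratio of 0.52 (0.27 to 0.78). In photoreceptor-annotated nuclei Lhx2 was at 17.3 and 32.1 CPM, for a log2 ratio of 0.89 (0.58 to 1.21). In amacrine cells it was at 8.95 and 20.9 CPM from 5 and 49 UMIs, for a log2 ratio of 1.22 (-0.10 to 2.91). In Müller clusters it did not differ beyond counting error: cluster 14 of Cre− was at 97.4 CPM and cluster 37 of Tet tcKO at 85.6 CPM. Müller nuclei held 10.9% of Lhx2 UMIs in Cre− and 2.75% in Tet tcKO, so its level over all nuclei was mostly that of other nuclei.

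Apoe, which encodes the apolipoprotein that carries lipids between cells, was higher in Tet tcKO over all nuclei. It was at 101 CPM (95.1 to 107) in Cre− against 179 CPM (172 to 185) in Tet tcKO, for a log2 ratio of 0.82 (0.73 to 0.92). Of the populations compared, photoreceptor-annotated nuclei had the largest ratio, with 119 and 286 CPM and a log2 ratio of 1.27 (1.15 to 1.38). There the 15 Cre− clusters ran from 90.5 to 161 CPM and the 8 Tet tcKO clusters from 200.0 to 353 CPM, without overlap. As for Glul, the share of all genes without such overlap was not computed. In RGCs Apoe was at 43.1 and 64.7 CPM, for a log2 ratio of 0.59 (0.12 to 1.07), but within RGC clusters 2, 8 and 31 each interval included 0 (ratios of 0.80, 0.59 and 1.13). In cluster 30 it was at 184 CPM (79.6 to 363) and 163 CPM (81.4 to 292), from 8 and 11 UMIs, with no detectable difference. The highest Apoe level of the 23 Tet tcKO clusters of 40 nuclei or more was in cone-annotated cluster 48, at 353 CPM. In Cre− the highest of 26 was Müller cluster 30, at 184 CPM, followed by rod-annotated cluster 44 at 161 CPM, and these intervals overlapped.

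Clu encodes clusterin, a secreted chaperone also called apolipoprotein J. It was at 57.8 CPM (53.5 to 62.3) in Cre− against 54.8 CPM (51.3 to 58.5) in Tet tcKO, for a log2 ratio of -0.07 (-0.22 to 0.07), which was 0.19 when the Tet tcKO classes were weighted to their shares in Cre−. In photoreceptor-annotated nuclei it was at 65.7 and 82.3 CPM, for a log2 ratio of 0.32 (0.15 to 0.50). In cluster 30 it had 6 and 7 UMIs and no detectable difference. The pair of secreted lipoprotein genes therefore did not differ alike over all nuclei.

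Vim, the intermediate filament vimentin, followed horizontal cells more than Müller glia. In Cre− it was at 461 CPM (361 to 580) in horizontal cells and 40.5 CPM (18.5 to 76.9) in Müller nuclei. In Tet tcKO it was at 315 CPM (220 to 438) and 26.8 CPM (7.30 to 68.6). Horizontal cells, 90 nuclei in Cre− and 37 in Tet tcKO, held 16.6% and 10.8% of all Vim UMIs. Over all nuclei Vim was at 38.2 CPM (34.7 to 42.0) and 19.5 CPM (17.5 to 21.8), for a log2 ratio of -0.97 (-1.18 to -0.76). With the Tet tcKO classes weighted to their shares in Cre− this was -0.59. In photoreceptor-annotated nuclei it was at 40.4 and 26.9 CPM, for a log2 ratio of -0.59 (-0.85 to -0.33). Cluster 30 had 2 Vim UMIs in each library, so no ratio is given.

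Mertk encodes a receptor tyrosine kinase by which cells take up dying cells and shed outer segments. It was at 21.0 CPM (18.5 to 23.8) in Cre− against 14.04 CPM (12.3 to 16.0) in Tet tcKO over all nuclei, for a log2 ratio of -0.58 (-0.85 to -0.32). In cluster 30 it was at 230 CPM (110 to 424) and 104 CPM (41.7 to 214), from 10 and 7 UMIs, for a log2 ratio of -1.15 (-2.78 to 0.39). Cluster 14 of Cre− was at 143 CPM and cluster 37 of Tet tcKO at 110 CPM, with a log2 ratio of -0.38 (-1.66 to 0.77). Each Müller point estimate lay below 0, but the counts do not separate them from no difference. The RPE is another tissue that expresses Mertk. Over all nuclei each of 6 RPE markers had a UMI in both libraries, and their sum was at 35.6 CPM in Cre− against 17.7 CPM in Tet tcKO, lower in Tet tcKO as Mertk was. In the Müller populations 3 to 5 of them were at 0, Best1, Mlana and Tyr in all, and the sum ran from 12.2 to 46.1 CPM on 1 to 6 UMIs. Their part in the Mertk difference was not tested.

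**Figure D5:**
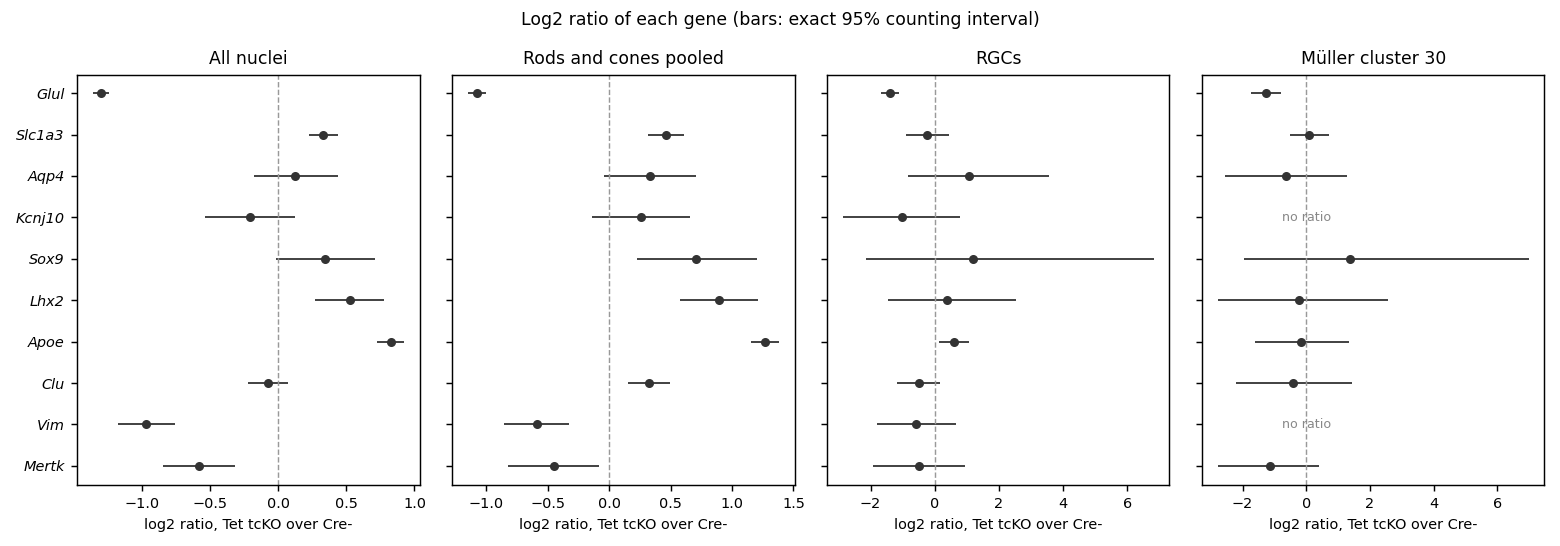
Log2 ratio of Tet tcKO over Cre− for each gene, with exact 95% counting intervals, over all nuclei, in rods and cones pooled, in RGCs and in Müller cluster 30 (each panel with its own axis). Glul lies below 0 in all 4 panels, from -1.40 to -1.08, and Apoe lies above 0 in the first 3; Kcnj10 and Vim have too few UMIs for a ratio in cluster 30.

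Set against all genes, the 10 did not form a block. Over all nuclei, 1 of 10 was 2-fold or more lower (Glul) and 0 were 2-fold or more higher, while of 11158 genes that reached 10 CPM in either library 2.48% were lower and 3.18% higher. Their median log2 ratio was 0.03, beside 0.15 for all these genes, and it turned to -0.08 under TMM or median-of-ratios scaling and to -0.03 without mitochondrially encoded genes. Intervals lay above 0 for Slc1a3, Lhx2 and Apoe, below 0 for Glul, Vim and Mertk, and included 0 for Aqp4, Kcnj10, Sox9 and Clu. The share of all genes with an interval apart from 0 was not computed. These interval calls therefore have no background beside them and do not set the 10 apart from other genes. Summed, the 10 genes were at 896 CPM in Cre− against 659 CPM in Tet tcKO, for a log2 ratio of -0.44 (-0.48 to -0.40). Without Glul the sum was at 359 and 442 CPM, for a log2 ratio of 0.30 (0.24 to 0.35), so the direction of the sum was that of Glul.

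In photoreceptor-annotated nuclei 1 gene was 2-fold or more higher (Apoe) and 1 lower (Glul), beside 6.09% and 2.57% of 11158 genes. The median was 0.33 there, beside 0.22 for all genes. These nuclei were mostly rods in Cre−, 5214 of 5479, and cones in Tet tcKO, 3225 of 3231, so genotype and photoreceptor type cannot be told apart. Without clusters 21, 32 and 38, which had a marker of another class among their leading genes, the ratios were -1.02 for Glul, 1.29 for Apoe, 0.48 for Slc1a3, 0.98 for Lhx2, 0.32 for Clu, -0.47 for Vim and -0.44 for Mertk. In amacrine cells 1 was 2-fold higher (Lhx2) and 1 lower (Glul), beside 7.02% and 5.21%. In RGCs, Aqp4 and Sox9 were 2-fold higher, on 3 and 11 and on 1 and 4 UMIs, and Glul and Kcnj10 were lower, Kcnj10 on 7 and 6 UMIs. The background there was 4.17% and 3.34%.

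In cluster 30, 8 of the 10 genes had a ratio, with a median of -0.32 beside 0.10 for all 4425 genes tested. Sox9 was 2-fold higher and Glul and Mertk 2-fold lower, while 17.4% of genes were higher and 16.3% lower by this measure at such low counts. Glul was the one gene of the 8 with an interval that did not include 0, and it had the most UMIs of them. Between cluster 14 of Cre− and cluster 37 of Tet tcKO, 8 genes again had a ratio, with a median of -0.28 beside -0.02 for 7903 genes. None was 2-fold higher or lower, against 12.8% and 17% of genes. Glul was once more the one gene of the 8 whose interval lay apart from 0, again with the most UMIs, 206 and 53. The share of all tested genes with such an interval was not computed for either comparison. Being the one gene therefore does not separate a change of Glul alone from its higher counts.

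Other genes of the same functions were read from lists, over all nuclei, as numbers that reached 10 CPM in either library. Of 10 further Müller glia genes 9 were measured at this level, with 0 higher and 2 lower by 2-fold and a median of 0.23. Over all genes 3.18% were higher and 2.48% lower, with a median of 0.15, and each list below is set beside these same values. The lowest was Rlbp1, the retinaldehyde-binding protein of Müller glia, at 105 CPM in Cre− against 31.0 CPM in Tet tcKO, for a log2 ratio of -1.76 (-1.91 to -1.61). In cluster 30 it was at 484 and 163 CPM, for a log2 ratio of -1.57 (-2.77 to -0.45). The highest was Dkk3, a secreted glycoprotein of the Dickkopf family, at 93.9 and 179 CPM, for a log2 ratio of 0.93 (0.83 to 1.03). In cluster 30 Dkk3 was at 599 and 904 CPM, for a log2 ratio of 0.59 (-0.09 to 1.32). Müller genes outside the 10 thus also lay on either side of 0.

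The 10 genes of glutamate and glutamine handling had a median of 0.19, beside 0.15, and none differed by 2-fold. They ran from Slc38a3, a glutamine transporter, at -0.42, to Slc1a1, a neuronal glutamate transporter, at 0.62. Of 11 genes of channel anchoring and ion balance 8 were measured, with a median of 0.34, beside 0.15. The highest was Atp1b2, a sodium pump subunit, at 1.38, the 1 gene past 2-fold, beside 3.18% of all genes that were higher. Among 9 of 10 genes of lipoprotein and cholesterol handling the median was 0.32 and 2 were 2-fold higher, beside 0.15 and 3.18%. The highest was the lipid exporter Abca1 at 1.22, and the lowest the sterol regulator Srebf2 at -0.27. Apoe and Abca1 were thus both higher in Tet tcKO.

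Of 16 glial and progenitor transcription factors and Notch pathway genes 15 were measured, with a median of 0.49, beside 0.15 for all genes. In this list 4 were higher by 2-fold and 0 lower, beside 3.18% and 2.48%. Hes5, a Notch target, was highest, at 3.48 CPM in Cre− against 16.2 CPM in Tet tcKO, and Id1 lowest, with a log2 ratio of -0.72. Sox2 was at 7.38 and 10.7 CPM, for a log2 ratio of 0.53. Pax6 was at 432 and 644 CPM over all nuclei, and in cluster 30 at 1129 and 1156 CPM. Of 5 filament genes 2 were measured, Synm at -0.70 and Lmna at 0.17. Gfap, the filament of reactive glia, was below that level, at 4.95 CPM in Cre− against 5.06 CPM in Tet tcKO, for a log2 ratio of 0.03 (-0.47 to 0.54). For phagocytosis, 7 of 8 genes were measured, with a median of -0.27, beside 0.15, and none past 2-fold. They ran from the receptor Tyro3 at -0.81 to the ligand Pros1 at 0.61.

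Across 47 populations, each a cluster of 50 nuclei or more within a library, some genes followed the 10 closely in log2(CPM + 1). For Glul the closest were Flt1 (Pearson r = 0.93) and Spc25 (0.93), for Slc1a3 Cp (0.92) and Adamtsl1 (0.91), and for Apoe H3f3b (0.91) and Nr1d2 (0.89). Vim was most like Ndrg1 (0.85), Clu like Galnt4 (0.84), Lhx2 like Frem1 (0.84) and Mertk like Elk3 (0.81). The best match was lower for Aqp4 (0.72), Kcnj10 (0.72) and Sox9 (0.69). These correlations describe populations that share 2 libraries, and no test was made.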

How the data were processed

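Nuclei from dissected retinas were partitioned with a PIPseq 3′ kit, and the authors processed reads with pipseeker 3.3.0 on GRCm39, removed ambient RNA with CellBender, and clustered and annotated nuclei in Monocle3. They kept nuclei above 500 and below 10000 transcripts with under 20% mitochondrial transcripts. The deposited matrices hold UMI counts per gene and nucleus. In the deposited cell tables, the mitochondrial percent and the size factor, a ratio to a constant, were not used. The deposited gene table gives a signal per genotype, the authors' mean per 10000 transcripts, which was not used here, and the number of nuclei with each gene.

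For each population the UMIs of a gene were added up and expressed per 1000000 UMIs of all genes (CPM). Log2 ratios put Tet tcKO over Cre−. Intervals at 95% are Poisson for levels, conditional binomial for ratios and Clopper-Pearson for shares. Pairs of counts that were both 3 or fewer got no ratio. Genes were counted as 2-fold higher or lower among those that reached 10 CPM in either library. The marker check ranked genes of each cluster by fold over other nuclei and looked for clusters in which markers of a different class outnumbered those of their own in the 10 leading genes. Müller glia, bipolar cells, rods and cones each had such a cluster. Müller glia were compared by cluster, and bipolar and horizontal nuclei not at all. Rods and cones were pooled and compared although clusters 21, 32 and 38 still failed, and their ratios are given with and without these clusters. The likeness of genes used a pseudocount of 1 CPM. Doublets were scored with scrublet in scanpy 1.11.5, and the highest 5% of scores were left out as an alternative, since no doublet call is given in the sources used here. Steps used Python 3.11.15, numpy 2.4.6, scipy 1.17.1, pandas 2.3.3, and edgeR 4.0.16 in R 4.3.3 for TMM factors. The intervals were tried only on simulated Poisson counts at the depth of whole libraries. That is the model they assume, so their coverage there was set in advance. Variation between nuclei and the low counts of the Müller clusters were not simulated. All 10 genes are named, and from each related list the genes with the highest and lowest ratio over all nuclei, plus Rlbp1, Gfap, Pax6 and Sox2. Some listed genes are not reported here. The genes and lists were chosen with earlier results of these data known. Gene positions are from the GENCODE annotation of GRCm39.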

Additional observations from a re-analysis of the deposited data

Results flagged for a closer look

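The deposited gene table counts more nuclei with each of the 10 genes than the matrices hold. Summed over the genes the excess was 2339 nuclei, a signal in data that none of the comparisons used. It ranged from 44 nuclei for Sox9 (317 against 273) to 856 for Glul (7181 against 6325). Relative to the matrices the table stood 1.11-fold higher for Apoe and 1.24-fold higher for Mertk, the lowest and highest of the 10. The count in the gene table names no library, and the source of the excess was not tested.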

How the results depend on the processing

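Of 283 values under other settings, 224 moved by less than their counting interval, 59 by more, and 0 reversed with an interval apart from 0. The setting with no filter on low values repeated the main values over all nuclei, so those values could not move. Changes of sign where the main interval included 0 were not counted as reversed. In amacrine cells, for example, Apoe went from 0.26 to as low as -0.70 within single clusters, and Lhx2 from 1.22 to -0.35. The summed log2 ratio of the 10 genes was -0.44 and became -0.55 with TMM factors, -0.55 with median-of-ratios factors, -0.50 without mitochondrially encoded genes, -0.31 with each gene counted once per nucleus, -0.39 in nuclei of 1000 UMIs or more, and -0.22 with Cre− class shares in both libraries. With those class shares the median of the 10 was 0.27. TMM factors moved every log2 ratio by -0.10 and median-of-ratios factors by -0.11. Counted once per nucleus, Müller nuclei held 4.31% of the genes' presences in Cre− and 2.57% in Tet tcKO. Glul stayed between -1.41 and -1.05 over all nuclei and between -1.29 and -0.81 in cluster 30. Apoe stayed between 0.58 and 1.13, Vim between -1.08 and -0.59, and Mertk between -0.69 and -0.45. Clu ran from -0.18 to 0.19 and Kcnj10 from -0.32 to 0.05, and Apoe and Slc1a3 changed sign within their intervals in Müller populations. Of 40 shares of Müller nuclei with a UMI, 21 moved with the thinning depth. Rods and cones were merged for the class shares, and the single-gene alternatives in Müller nuclei the left-out photoreceptor clusters and the values within amacrine and RGC clusters were added after the data were seen. No paired analysis was possible because each genotype has 1 library and no replicate numbers, and for the same reason no replicate could be left out. Depth limits what Müller clusters can show: in cluster 30 the 10 genes had 180 and 172 UMIs, and 6 of the genes had fewer than 10 in each.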

Other observations

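A Tet tcKO cluster annotated as bipolar, cluster 43, carried several of the glial genes. It held 275 Tet tcKO nuclei, 4.06% of that library, and 3 Cre− nuclei. Among the 23 Tet tcKO clusters of 40 nuclei or more, it came next after Müller clusters 30 and 37 for Slc1a3 (314 CPM, 276 to 355), Mertk (39.4 CPM, 26.9 to 55.6) and, narrowly, Lhx2 (36.9 CPM, 24.9 to 52.7, with cone cluster 51 at 36.4 CPM). Glul was at 300.3 CPM there, below cone cluster 46 at 337 CPM, with 0.957 Glul UMIs for each Slc1a3 UMI (0.800 to 1.14). The other Tet tcKO clusters annotated as bipolar ran from 41.0 to 151 CPM of Slc1a3. Of Müller genes outside the 10, Abca8a was at 185 CPM in cluster 43, against up to 71.3 CPM in cone clusters, Dkk3 at 304 CPM against up to 265 CPM, and Crb1 at 290 CPM against up to 259 CPM. Rlbp1 was at 49.2 CPM, within the range of cone clusters (31.8 to 57.4 CPM). Sox9 was at 16.0 CPM and Aqp4 at 18.5 CPM, with 13 and 15 UMIs, below the highest cone clusters at 19.9 and 29.5 CPM. Ranked by UMIs, the 10 leading genes of cluster 43 held no bipolar and no Müller marker. The other Tet tcKO clusters annotated as bipolar also had no bipolar marker there. Cp, Tcf7l1, Tmem132b, Gm29260 and Gm3764 led both cluster 43 and Müller cluster 37. Median depth in cluster 43 was 2495 UMIs per nucleus. The highest doublet scores took 5.45% of its nuclei, against 11.2% of all Tet tcKO nuclei annotated as bipolar, 4.64% of the library and 0% of its Müller nuclei. Cluster 43 was named after its values were seen.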
